A study of Caenorhabditis elegans with 4 samples.

Results

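Of the 10159 sites at which tagged BLMP-1 was recovered in first-stage larvae of Caenorhabditis elegans, 1649 lay on chromosome III. BLMP-1 binds DNA through zinc fingers and is the worm's relative of vertebrate PRDM1 (Blimp-1). These were all the peaks of the list placed on III, chosen by chromosome alone and by no measured value. They were set against the 6762 peaks on the other 4 autosomes, I, II, IV and V. The data came from chromatin immunoprecipitation and sequencing (ChIP-seq) of fed L1 hermaphrodites of strain OP109, with 2 ChIP libraries, for which goat anti-EGFP antibody was used, and 2 input libraries, from 2 extractions. All worms carried unc-119 (ed3) on III and the transgene wgIs109, in which blmp-1::TY1::EGFP::FLAG is joined with a rescuing unc-119 (+), and were grown at 20 °C. No untagged strain was among the groups. The transgene was introduced by bombardment, its place of insertion is not given in the labels, and the genotype lists no mutation of the resident blmp-1 gene. The lysis protocol in the labels speaks of embryos, whereas the samples are labelled fed L1. The allele unc-119 (ed3) of the background lies on III itself. Its position was not looked up, since no annotation of the build of the peaks, WormBase WS180, was used here.

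In the worm, BLMP-1 acts in larval development, among other places in the epidermis and its cuticle and in the timing of cell migration in the gonad. Worm autosomes have a centre dense in genes and 2 arms that are richer in repeats, carry more silencing histone marks and recombine more often. Chromosomes of this species are holocentric, so the centre is a stretch of the map and not a centromere.

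The list gave for each peak its borders and the q-value of the peak caller, which measures the evidence for more ChIP than input reads. A lower q means stronger evidence, and at a given ratio q falls as the number of reads grows. It is labelled as combined and therefore holds no value of a single library, and the error between replicates and the depth are unknown. The intervals below are exact binomial or Poisson intervals at the 95% level. Those of the difference in strong peaks between centre and arms instead combine exact intervals by an approximation. All intervals cover counting error only and treat peaks as independent. Peaks clustered, so these intervals are too narrow. III was compared with the other autosomes as 1 value against 4, by an exact two-sided permutation of the chromosome labels, which cannot give a p below 0.2. Over the 102 measures compared in this way, the smallest Benjamini-Hochberg adjusted p was 0.956. None of the differences between III and the other autosomes given below passed, and they are descriptions.

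Peaks on III ran from 14711 to 13767355, a span of 13.8 Mb, and were denser than on any other autosome. The density was 119.9 peaks per Mb against 78.4 to 114 on I, II, IV and V, and 1.22 times (1.15 to 1.28) the density of those 4 pooled (exact permutation p = 0.4). Peaks covered 849 kb, or 6.17% of the span, against 4.32 to 5.95% on the others. The number of peaks on III lay within the counts of the others, 1638 to 1724. Its span was the shortest, with the others at 15.0 to 20.9 Mb.

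The left arm, below 0.25 of the span, was the sparsest part of III. It held 271 peaks, or 78.8 per Mb (69.7 to 88.8). The centre, from 0.25 to 0.75 of the span, began at 3452872 and held 1025 peaks, or 149 per Mb (140.1 to 158). The right arm began at 10329194 and held 353 peaks, or 103 per Mb (92.2 to 114). In the list, III thus had a poorer and a richer arm, with 1.30 times (1.11 to 1.53) as many peaks on the right as on the left. The intervals of the 3 parts did not overlap, but they treat peaks as independent and are too narrow. They therefore cannot decide whether the arms differ by more than the clustering of peaks would give, and this was not tested.

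The other autosomes shared the rich centre but not the order of the arms. Among I, II, IV and V, the right arm was the denser one only on II. On I, IV and V it was the left. The right-to-left ratio of density was 0.624 to 1.94 on those 4, so the ratio on III lay inside their range (exact permutation p = 1.0). In density, the right arm of III exceeded the right arms of the other 4 (37.7 to 97.5 per Mb), and its centre exceeded their centres (110.1 to 148 per Mb). Its left arm lay within their range of 50.3 to 93.7 per Mb. The interval of the right arm on III overlapped that on II (87.8 to 108), and the centre on III overlapped the centres of I and II.

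**Figure D1:**
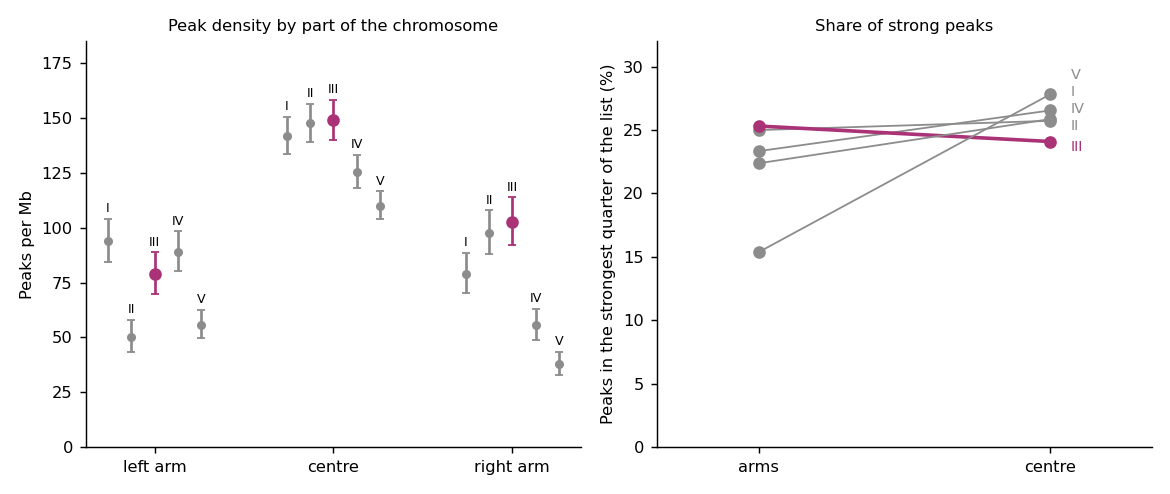
Left: peaks per Mb in the left arm, centre and right arm of the 5 autosomes (points) with 95% Poisson intervals (bars), III in purple. Right: share of peaks, in percent, that belong to the 25% of the whole list with the lowest q, in arms and centre of each autosome, where III is the only one whose line falls from arms to centre, from 25.3% to 24.1%.

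Divided into 20 equal parts, III showed the same course in more detail. It lay above all 4 other autosomes in 10 parts, below all 4 in 1 part and within their range in 9. From the left end the density fell to 52.4 and 58.2 per Mb between 0.1 and 0.2 of the span. It was 121 per Mb from 0.2 to 0.25 of the span, where the others had 30.1 to 119, and between 148 and 164 from there to 0.45. The step in density therefore lay at about 0.2 of the span, inside the left arm as it was drawn here. A dip to 113 per Mb followed just left of the middle, from 0.45 to 0.5 of the span. The other autosomes had 95.7 to 178 per Mb there, with a mean of 149. V dipped in the same part, to 95.7 per Mb, between 136 and 144 in the parts beside it. The highest density, 186 per Mb, lay from 0.6 to 0.65 of the span.

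The right arm of III differed most from the mean of the other autosomes in its outer stretch. In the last 2 of the 20 parts, III had 103 and 115 peaks per Mb against means of 58.7 and 71.0 on the others. That was 1.76 and 1.62 times their mean. II, the densest of the others there, came closer to III, with 90.4 and 106 per Mb. Towards this end the density on III rose again, from 90.2 per Mb between 0.8 and 0.85 of the span.

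**Figure D2:**
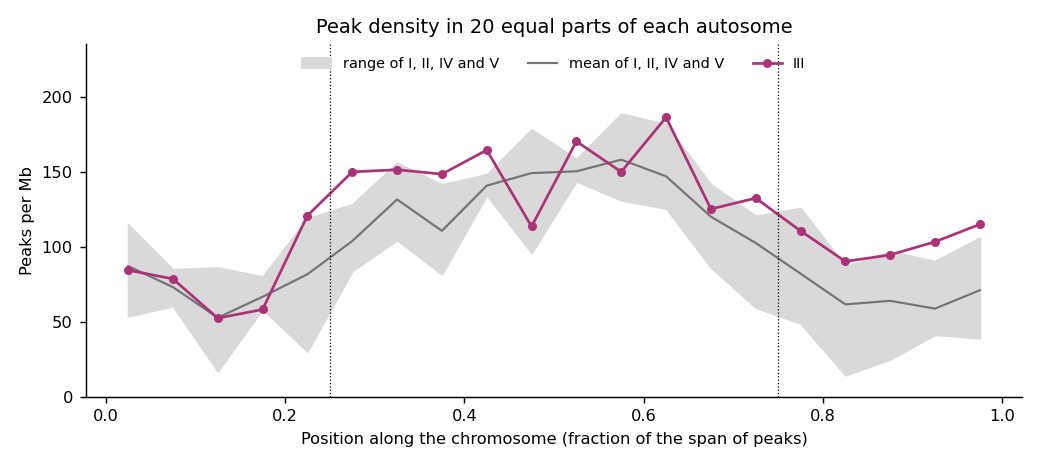
Peak density (peaks per Mb) in 20 equal parts of each chromosome, plotted against position as a fraction of the span of peaks. The purple line is III, the grey line the mean of I, II, IV and V and the grey band their range, and dotted lines mark 0.25 and 0.75. III dips to 113 per Mb just left of the middle, inside the band, and stays above the band at the right end.

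In windows of 250 kb, the 55 windows of III held 4 to 52 peaks. Their median was 29 peaks and their quartiles were 22 and 38.5. The 272 windows of the other autosomes had a median of 23 and a range of 2 to 61. Fewer than 10 peaks were found in 2 windows of III (3.64%) and in 31 windows of the others (11.4%). More than 40 were found in 10 windows (18.2%) and in 27 (9.93%). III had few very sparse windows, and its maximum was no higher than that of the others.

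The 3 densest windows all lay in the centre. They ran from 7514711 to 7764710 with 52 peaks, from 4264711 to 4514710 with 51 and from 8514711 to 8764710 with 49. In the window with 49 peaks, 20 belonged to the 25% of the list with the lowest q, against 11 and 10 in the other two. That window was thus rich in strong peaks as well as in peaks. Peaks covered 11.8% of the window with 51 peaks and 7.89% of the one with 49.

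The 3 sparsest windows all lay on the left arm. The sparsest, from 1264711 to 1514710, held 4 peaks that covered 0.56% of it, and 0 of them were among the strong ones. The others were adjacent to each other, from 2264711 to 2514710 with 9 peaks and from 2014711 to 2264710 with 10. Left arm windows had a median of 21 peaks (range 4 to 43). The 43 belonged to the window that crosses the border of the centre. Centre windows had a median of 37 (16 to 52) and right arm windows a median of 24 (15 to 38). The 16 peaks of the poorest centre window, from 6514711 to 6764710 and singled out after its value was seen, were fewer than in any of the 26 other windows of the centre.

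**Figure D3:**
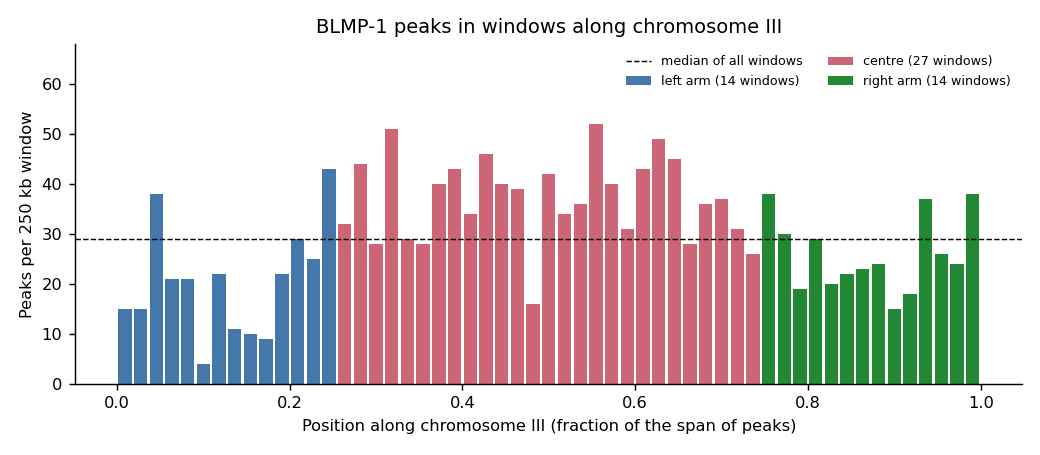
Peaks per 250 kb window along III, plotted against position as a fraction of the span, coloured by left arm, centre and right arm, with the median of 29 peaks dashed. The left arm falls to 4 peaks in its poorest window, the centre has a single low window of 16 and the right arm stays between 15 and 38.

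Peaks were spread more evenly along III than along the other autosomes. The coefficient of variation of the counts in 250 kb windows was 38.1% on III and 41.6 to 60.3% on the others (exact permutation p = 0.4). The densest 25% of windows held 37.4% of the peaks on III and 39.1 to 46.7% on the others. In windows of 500 kb, III had 36.2% and lay within the 35.5 to 44.1% of the others. Gaps of at least 20 kb between neighbouring peaks numbered 173 on III and made up 44.8% of its span, against 45.1 to 66.9% elsewhere. The value on I, 45.1%, was close to that on III.

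The long gaps were on the arms above all. They made up 65.1% of the left arm, 29.3% of the centre and 55.4% of the right arm. The longest, of 141 kb, ran from 1288863 to 1429854 on the left arm and was followed by 140.0 kb from 154510 to 294530 near the left end. The next was 109.8 kb on the right arm, from 12688439 to 12798284. The fourth, 81.8 kb from 6628117 to 6709915, lay in the poorest window of the centre. The fifth was again on the left arm, 75.5 kb from 1682659 to 1758175. The longest gaps of the other autosomes were 116 to 369 kb, so that of III lay within their range.

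Neighbouring peaks on III were separated by a median of 3272.5 bp, with quartiles of 961 and 9777 bp. The median on the other autosomes was 2938.5 to 4013 bp. It was 4440 bp on the left arm of III, 2901 bp in the centre and 3608 bp on the right arm. The smallest gap was 200 bp. Gaps of 1000 to 3000 bp made up 22.9% of the gaps on III and 19.0 to 22.3% on the others, and gaps of at least 50 kb made up 1.40% against 1.76 to 4.40%.

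Peaks were joined into clusters where the gap to the next was under 1000 bp. On III, 965 peaks stood alone (58.5%) and 684 peaks formed 265 clusters. Most clusters were pairs, 174 of them, and 52 had 3 peaks and 25 had 4. The share of peaks in clusters, 41.5% (39.1 to 43.9), lay within the 40.2 to 47.1% of the other autosomes. It was 44.9% in the centre, 36.9% on the left arm and 35.1% on the right arm. Clusters of at least 5 peaks numbered 14 on III, as many as on IV and more than the 9 to 12 on I, II and V. They held 80 peaks, or 4.85%, against 2.98 to 4.81%. Among the 50% of the list with the lowest q, the share was 2.36%, within the 0 to 3.20% of the others.

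Of the 14 large clusters, 10 lay in the centre and 2 on each arm. The one with most peaks stood on the left arm, from 2868459 to 2876574, where 9 peaks of 97 to 1090 bp covered 62.0% of 8116 bp. It is the largest cluster of the arm with fewest peaks. The next, from 5467848 to 5474541, had 7 peaks over 6694 bp. Among the clusters of 6, the one from 3483441 to 3489541 began just inside the centre, and those from 8838593 to 8842941 and from 9297278 to 9301758 lay in its right part. Another cluster of 6, from 9697214 to 9705536 and outside the rule for named clusters, was built differently. Its peaks had a median width of 1125 bp, covered 85.5% of it and had inferred ChIP to input ratios, explained below, of only 1.30 to 1.91. In the 9-peak cluster those ratios ran from 1.69 to 3.70.

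The q-values of the list could be turned back into tag counts. The caller, PeakSeq, sets the ChIP tags of a region against its input tags in a binomial test. Each of the 1649 q-values on III matched exactly 1 pair of whole ChIP and input tag numbers within a relative tolerance of 1e-11. These numbers are inferred, are not split by replicate, and the input tags are those left after the caller's scaling. The median peak on III had 294 ChIP tags and 133 input tags. The ratio of ChIP to input had a median of 2.03 (1.97 to 2.09), quartiles of 1.65 and 2.74 and a range of 1.11 to 10.4, and 142 peaks (8.61%) reached a ratio of 4. On the other autosomes the median was 2.02 to 2.15. Only peaks past the threshold of the caller are listed, so a peak with few tags needed a higher ratio to be in the list than a peak with many.

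The median ratio was highest on the left arm and lowest on the right arm, but the intervals of the 3 parts overlapped. It was 2.12 (1.94 to 2.21) on the left arm, 2.04 (1.97 to 2.11) in the centre and 1.94 (1.84 to 2.05) on the right arm. In the 20 parts it showed no steady course. It was 1.90 from 0.15 to 0.2 of the span, 2.21 from 0.2 to 0.25, 1.87 from 0.25 to 0.3 and 2.14 from 0.55 to 0.6. The difference of right and left arm, -0.18, was lower than on the other 4, which ran from -0.13 to 0.07 (exact permutation p = 0.2, the smallest possible). Input differed between the arms as well. In peaks of at least 200 bp, inferred input had a median of 303 tags per kb on the left arm, 333 in the centre and 342 on the right arm, while ChIP had 676, 703 and 716. The part of input in the difference of the arms was not tested.

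The centre and arms of III differed little in the strength of their peaks, and the direction depended on the measure. Of the central peaks 24.1% and of the arm peaks 25.3% belonged to the 25% of the list with the lowest q, a difference of -1.22 points (-5.66 to 3.12). On I, II, IV and V the centre had the higher share, by 0.73 to 12.5 points (exact permutation p for III against these = 0.4). The median of -log10 q was 10.7 in the centre and 9.91 on the arms of III. The other autosomes had 10.8 to 12.4 in the centre and 6.05 to 8.63 on the arms. The arms of III therefore lay above the arms of the other 4, and its centre just below their centres. The sign of the difference in strong peaks did not hold. It was 2.71 points with the strongest 50% of the list, where the others had 7.52 to 20.9, and 1.08 points with the strongest 10%, where III lay within their range of 0.91 to 7.38.

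The inferred ratio also differed little between centre and arms, and it comes from the same q-values and is no independent measure. The centre of III exceeded its arms by 0.02 in median ratio, 2.04 against 2.01. On the other autosomes the centre exceeded the arms by 0.09 to 0.18 (exact permutation p = 0.2, the smallest possible). Inferred input per kb on the arms was 0.963 times that in the centre of III, inside the 0.829 to 1.03 of the others.

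Widths on III had a median of 402 bp (391 to 416), with quartiles of 302 and 577 bp and a range of 1 to 6023 bp. The other autosomes had medians of 400 to 435.5 bp. The median was 411 bp on the left arm (378 to 448), 394 bp in the centre (378 to 410) and 423 bp on the right arm (394 to 451), with overlapping intervals. Peaks of at least 1200 bp were fewer than on any other autosome, 80 or 4.85% against 5.49 to 5.97% (exact permutation p = 0.2, the smallest possible). On the right arm of III they made up 3.40%, against 6.09 to 9.12% on the right arms of the others. On its left arm they made up 4.06%, within the 3.70 to 5.41% of the others. Of the 80, 57 lay in the centre (71.3%, 60.0 to 80.8), an interval that includes the 62.2% of all peaks of III.

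Peaks in clusters were wider and stronger than peaks that stood alone. Single peaks had a median width of 378 bp (366 to 393), peaks in clusters of 2 to 4 had 440.0 bp (419 to 465) and peaks in clusters of at least 5 had 457.5 bp (402 to 520). The median inferred ratio was 1.93 (1.87 to 1.98), 2.15 (2.06 to 2.23) and 2.47 (2.22 to 2.82) in that order. The share in the 25% of the list with the lowest q was 18.5% (16.1 to 21.1), 32.1% (28.4 to 36.0) and 40% (29.2 to 51.6). The intervals of single peaks lay apart from those of clusters in all 3 measures, while those of the smaller and larger clusters overlapped. All clusters together exceeded single peaks in ratio by 0.26 on III and by 0.13 to 0.33 on the other autosomes, so the order was the same on 5 of 5. Peaks of a cluster share a stretch of chromatin and are not independent, and whether the caller split broad regions was not tested.

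**Figure D4:**
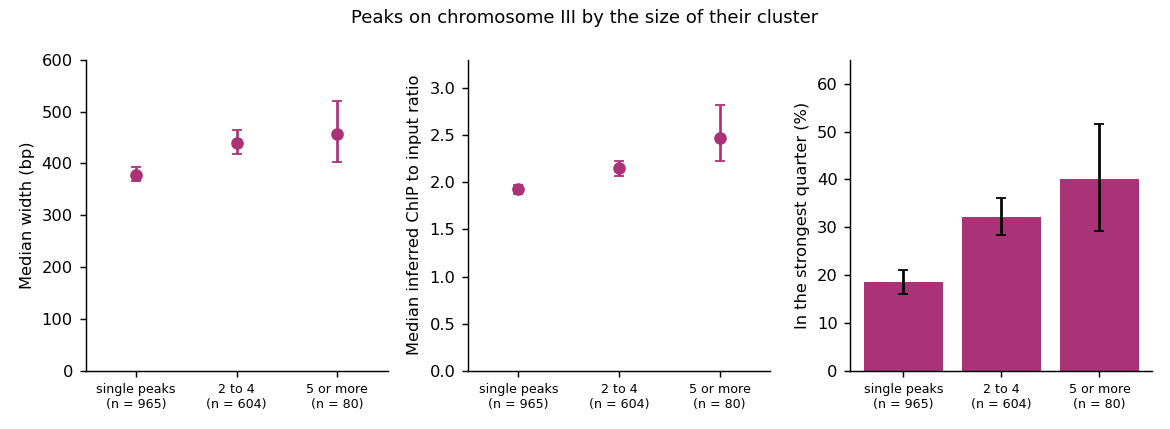
Peaks on III by the size of their cluster (single, 2 to 4 or at least 5 peaks, joined at gaps under 1000 bp), with the median width in bp, the median inferred ChIP to input ratio and the share in the strongest 25% of the list. Bars are 95% exact intervals, and the ratio goes from 1.93 in single peaks to 2.47 in the largest clusters.

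The 10 peaks of lowest q on III were broad, and 10 of 10 belonged to a cluster. Of these, 9 lay in the centre. Of all peaks of III, 41.5% belonged to a cluster and 62.2% were central. Among the 47 peaks of III with q under 1e-100, 55.3% (40.1 to 69.8) were central. Widths of the 10 peaks ran from 755 to 6023 bp with a median of 1981 bp. The lowest q, 1.12e-246, belonged to the peak from 6358487 to 6361863, of 3377 bp, with 3332 ChIP and 1128 input tags inferred and a ratio of 2.95 (2.76 to 3.16). The second, from 9646077 to 9646966 (q = 4.85e-212), was only 890 bp wide and had a ratio of 5.79 (5.08 to 6.63). The third, from 5836140 to 5842162 (q = 9.07e-209), was also the widest of III and had 4994 ChIP and 2362 input tags, a ratio of 2.11. A low q thus came with a high ratio in a narrow peak and with many tags in a wide one.

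The next were 3480093 to 3481366 (q = 4.52e-190, ratio 4.99) and 4099468 to 4101434 (q = 2.97e-182, ratio 3.81). The first of these lay close to the left border of the centre and close to the 6-peak cluster that starts at 3483441. The only one outside the centre was 13708488 to 13709583 (q = 1.17e-167, ratio 3.73), in a 5-peak cluster near the right end. The remaining 4 lay at 8982958 to 8985529, 3681200 to 3681954, 7299218 to 7301212 and 7295201 to 7298973, with q-values up to 5.86e-160. The last 2 were 244 bp apart in 1 cluster of 3.

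The highest ratios belonged to peaks of 387 to 480 bp with little input. Among peaks of at least 200 bp, the highest was 10.4 (7.82 to 14.0), from 4767799 to 4768220, with 559 ChIP and 54 input tags over 422 bp. The peak from 13216475 to 13216939 followed with 8.68 (6.87 to 11.1). Then came a pair on the left arm, from 1149403 to 1149882 with 8.47 (6.71 to 10.8) and from 1151606 to 1152079 with 8.37 (6.61 to 10.7), 1723 bp apart. The fifth, from 10986374 to 10986760, had 8.35 (6.25 to 11.4). Their intervals overlapped, so the 5 could not be ranked. On the arms lay 4 of the 5, whereas the left arm held 16.4% and the right arm 21.4% of all peaks of III. The 142 peaks with a ratio of at least 4 were mostly central, with 28 on the left arm, 85 in the centre and 29 on the right arm. These intervals take the scaled input tags as counts.

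Among the 5 widest peaks, ratio and width came apart, whereas the evidence was weak in only 1 of them. Behind the 6023 bp peak stood one of 4887 bp on the right arm, from 10630706 to 10635592, whose q was 1.39e-04. It had 2758 ChIP and 2481 input tags, and its ratio of 1.11 (1.05 to 1.17) was the lowest on III. The others ran from 9050946 to 9055108 with a ratio of 1.84, from 12612120 to 12616271 with 1.53 and from 7727497 to 7731508 with 1.99. Their q-values were 2.04e-91, 2.19e-54 and 6.86e-127 in that order. The widest peaks were therefore below the median ratio of III in 4 of 5 cases.

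Inferred input per kb picked out a further set. The median of III was 329 tags per kb in peaks of at least 200 bp, against 277 to 322 on the other autosomes. The highest values were 910.3 in the peak from 4560264 to 4560932, 885 from 8416807 to 8418106, 839 from 12583275 to 12583859, 822 from 9618721 to 9620671 and 813 from 8799690 to 8802773. The peaks starting at 4560264 and 12583275 had ratios of 1.17 and 1.23 and q-values of 0.00371 and 6.06e-04. The peak starting at 8799690 had 4794 ChIP and 2507 input tags over 3084 bp and a q of 2.58e-158. High input thus occurred both in weak and in strong peaks. Each of the 5 stood alone in the list, with no other peak within 1000 bp, as did 58.5% of all peaks of III.

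**Figure D5:**
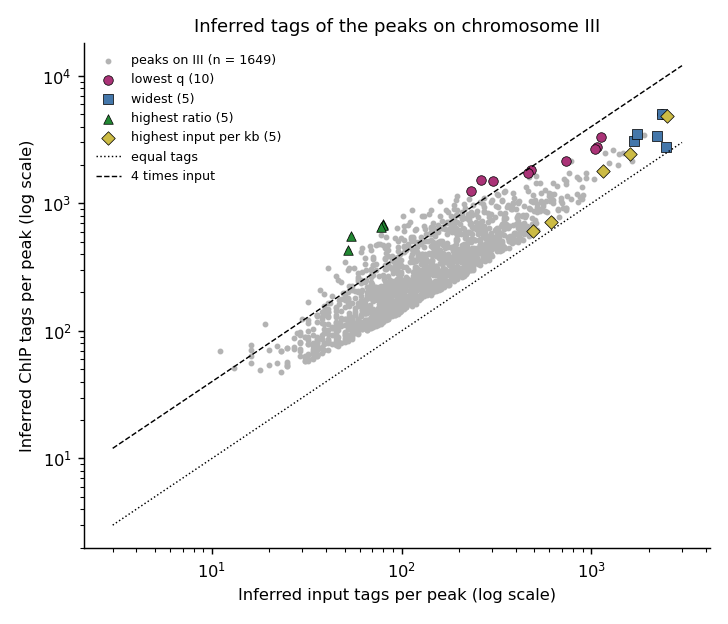
Inferred ChIP tags against inferred input tags for each peak on III (log axes), with lines at equal tags and at 4 times input, and the named peaks marked. Peaks of highest ratio (triangles) have 52 to 80 input tags, and those of highest input per kb (diamonds) lie near the line of equal tags or below 4 times input.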

How the data were processed

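The deposited file is 1 PeakSeq list on WormBase WS180, per the file headers, with the borders and a q-value of at most 0.01 for each peak. The aligner, the caller's version, read filters and how replicates were combined are not given in the sources used here, and depth is unknown. Crosslinking was with 2% formaldehyde, per the labels' protocols.

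Peaks were placed by their midpoints. Parts of a chromosome are fractions of the span between its outermost peaks. Windows were tiled from the left end of the span, which left out 1 peak of III. Tag counts were inferred from q as a binomial tail at even odds, times 16906 candidate regions, divided by the rank in the list plus 12. The settings were searched on a few narrow peaks, of which this setting matched most. With 1 candidate fewer or more no peak matched, in a search limited to lower tag totals. Over the whole list, 10157 of 10159 peaks matched 1 pair, 1 of them with its rank raised by 1. The code for zones, clusters, widths and the inference of tags was tested on simulated data.

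Regions named are, on III, the 10 peaks of lowest q, the 5 widest, the 5 of highest ratio and the 5 of highest input per kb (both at 200 bp or more), the 5 longest gaps, the 5 clusters with most peaks and the 3 densest and 3 sparsest windows. Members, measures and rules were chosen with earlier results of these data known. Genes and sequences at the peaks were not analysed here, since the gene table in hand was of another build. Alternatives are lists restricted by q or width, joined clusters, other borders, windows and joining distances. Tables were made with pandas 2.3.3 and numpy 2.4.6, intervals and tests with scipy 1.17.1 and figures with matplotlib 3.10.9, under Python 3.11.15.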

Additional observations from a re-analysis of the deposited data

How the results depend on the processing

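Under 43 alternatives to 8 values of III, 14 values moved outside the counting interval and the sign of 1 measure turned. The higher density of III held in 5 of 5 alternatives (1.22 to 1.25 times the other autosomes). In the 50% of the list with lowest q, the densest 25% of windows held 41.1% of the peaks, the median width was 479 bp, 32.5% of peaks were in clusters and the median inferred ratio was 2.65. In the 10% with lowest q, these were 52.7%, 669 bp, 13.8% and 3.97. There the central share was 1.29 times the central part of the span (1.24 in all peaks), and the right arm had 1.03 times (0.6 to 1.79) the peaks of the left, so no difference of the arms was detectable at this strength. Density, covered share, evenness, long gaps and wide peaks of III then also lay within the range of the other autosomes. The densest windows held 40.4% at 100 kb. Joined clusters had a median width of 448.5 bp, and joining at gaps under 500 or 2000 bp put 20.7% or 60.0% of peaks in clusters, by construction. That measure was the central minus arm share of strong peaks, -1.22 points, which ran from -1.30 to 2.71 and was above 0 in 4 of 6 alternatives chosen after the data were seen, with intervals that include 0. No paired analysis was possible because no value of a single library is listed, and for the same reason no replicate was left out. How many weak sites were missed depends on a depth that is unknown.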

Other observations

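The weak end of the list had a lower central share than all peaks of III, which include it. Of the 175 peaks with q over 0.001, 53.7% (46.0 to 61.3) lay in the centre, against 62.2% of all peaks of III. That interval treats peaks as independent and is too narrow, and the share is not given here for the other autosomes. The 175 peaks had a median width of 258 bp and a median inferred ratio of 1.47. The 47 peaks with q under 1e-100 had a median width of 890.0 bp and a median ratio of 4.76, and 55.3% of them (40.1 to 69.8) were central.

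Very narrow peaks, of at most 50 bp, numbered 27 on III (1.64%), with 8 on the left arm, 16 in the centre and 3 on the right arm. Their median inferred ratio, 2.06, was close to that of all peaks of III, while they had a median of 59 ChIP and 31 input tags.

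Across the peaks of III, which are not independent, Spearman's rho of width and -log10 q was 0.54, that of width and the inferred ratio was -0.05, and that of the ratio and -log10 q was 0.76. Input per kb and the ratio share the input tags, and their rho over 1485 peaks of at least 200 bp was -0.70, against -0.67 to -0.54 on the other autosomes.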
